A study of Mus musculus with 6 samples.

Results

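Scn4a, Scn4b, Clcn1, Atp1b1 and Atp1b2 are genes of muscle excitability, that is, of the ion channels and the ion pump by which a muscle fibre fires and recovers. They were measured in the quadriceps of AR97Q mice, a model of SBMA (spinal and bulbar muscular atrophy, a disease of motor neurons and muscle) that carries a transgene with 97 CAG repeats. All 6 animals were transgenic males examined at 9 weeks of age on a C57BL/6J background. The 3 mice of the Exercise group ran on a forced wheel at 5 m/min for 60 min a day, 5 days a week, for 4 weeks from 5 weeks of age, and the 3 mice of the Sedentary group did not. No wild-type muscle was among the arrays, so the levels of a healthy muscle are not given here. The genes were found by matching the accession of each non-control probe to a mouse gene annotation, which gave 7 probes of these 5 genes out of 56605 probes, and all 5 were among the 25005 genes and transcripts tested. The promoter that drives the transgene was not given in the sources used here.

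A muscle fibre fires when voltage-gated sodium channels in its membrane and transverse tubules open. Scn4a encodes the pore-forming subunit of the sodium channel of adult skeletal muscle, and Scn4b encodes a beta subunit, a small membrane protein that binds sodium channels and changes their gating. The chloride channel encoded by Clcn1 steadies the resting potential, and its loss causes myotonia, the delayed relaxation of muscle. The sodium pump restores the sodium and potassium gradients after firing, and Atp1b1 and Atp1b2 encode beta subunits that the catalytic alpha subunits need to reach the membrane.

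Promoter windows from RefSeq are shown for Scn4b, the member with the largest change, and for Scn4a, which encodes the channel that Scn4b can bind. The window of Clcn1, whose groups did not overlap after scaling, is shown as well. The groups of Atp1b1 did not overlap after scaling either, but its window is not shown. Each window runs from 250 bases before to 50 bases after the annotated gene start and is written 5′ to 3′ on the strand of the gene in build GRCm38.p6. The windows are chr9:45138374-45138673 (+) for Scn4b, chr11:106349341-106349640 (-) for Scn4a and chr6:42286435-42286734 (+) for Clcn1. Capitals mark matches on either strand to the E-box CANNTG that myogenic factors bind and to the motif of the muscle factor MEF2.
Scn4b: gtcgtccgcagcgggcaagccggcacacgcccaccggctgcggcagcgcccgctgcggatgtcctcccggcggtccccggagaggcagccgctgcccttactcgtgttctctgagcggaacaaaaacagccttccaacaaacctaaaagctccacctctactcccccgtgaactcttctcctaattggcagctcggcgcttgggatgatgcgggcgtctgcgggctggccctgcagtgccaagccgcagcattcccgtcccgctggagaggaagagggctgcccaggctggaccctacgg
Scn4a: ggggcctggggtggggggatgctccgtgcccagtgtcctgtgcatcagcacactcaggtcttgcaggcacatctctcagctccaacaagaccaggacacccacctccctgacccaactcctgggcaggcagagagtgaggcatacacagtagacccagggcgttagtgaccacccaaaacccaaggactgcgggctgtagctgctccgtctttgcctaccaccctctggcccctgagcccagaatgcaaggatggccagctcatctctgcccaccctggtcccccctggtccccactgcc
Clcn1: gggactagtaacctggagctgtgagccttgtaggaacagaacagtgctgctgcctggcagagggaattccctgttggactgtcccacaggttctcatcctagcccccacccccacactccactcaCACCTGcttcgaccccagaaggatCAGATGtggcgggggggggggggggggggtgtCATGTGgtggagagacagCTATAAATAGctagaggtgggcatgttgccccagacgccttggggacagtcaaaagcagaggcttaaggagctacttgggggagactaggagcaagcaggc

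The Clcn1 window held 3 E-boxes, which began 125, 101 and 69 bases before the gene start, and a MEF2 match that began 51 bases before it. An E-box was found in 72.3% of the 32851 promoter windows of the same length, whereas a MEF2 match was found in 0.557% of them. The Scn4b and Scn4a windows held neither motif, nor did that of Atp1b1. These matches describe letters only, and binding was not measured.

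The comparison asked which excitability genes differed between exercised and sedentary muscle of AR97Q mice. All 5 genes had a higher mean in the Exercise group, except that Scn4a turned lower in unscaled signals and with spike-in scaling, but Scn4b was the only one that passed the test, rising 3.74-fold. Clcn1, Atp1b2 and Atp1b1 were 1.72-fold, 1.68-fold and 1.49-fold higher in the mean without passing, and Scn4a was 1.18-fold higher. Values are log2 signals relative to the 75th percentile of each array, so that 0 is the level of that percentile, and a gene passed when the adjusted P of limma across all 25005 genes and transcripts was below 0.05. Of the 5 genes, 1 passed as higher and 0 as lower, against 11.5% and 6.12% of all genes and transcripts tested. Scn4b was also the only member that both passed and reached a log2 fold change of 1, as 1.72% of all genes and transcripts did in that direction. After scaling, the groups did not overlap for 3 of the 5 genes, against 43.2% of all genes and transcripts. In whole muscle, a change in the number of cells of a type and a change in RNA per cell cannot be told apart.

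Arrays were placed in 2 strips of 1 slide. The 3 Exercise arrays and Sedentary 1 lay in strip 1, and Sedentary 2 and Sedentary 3 lay in strip 2, so the strip is partly confounded with the group. With the strip as a block, the difference rests on the Exercise arrays against Sedentary 1 alone. A call lost in that fit is therefore not a result about a gene. The log2 fold changes in that fit were 1.15 for Scn4b, 0.36 for Atp1b1, 0.28 for Clcn1, 0.16 for Atp1b2 and 0.02 for Scn4a. The 75th percentile of the signal itself was 251 to 257 in the Exercise arrays and 310 to 384 in the Sedentary arrays, and between 54.6% and 59.9% of probes were well above background on an array. All 7 probes were well above background on all 6 arrays, and no spot was saturated.

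**Figure D1:**
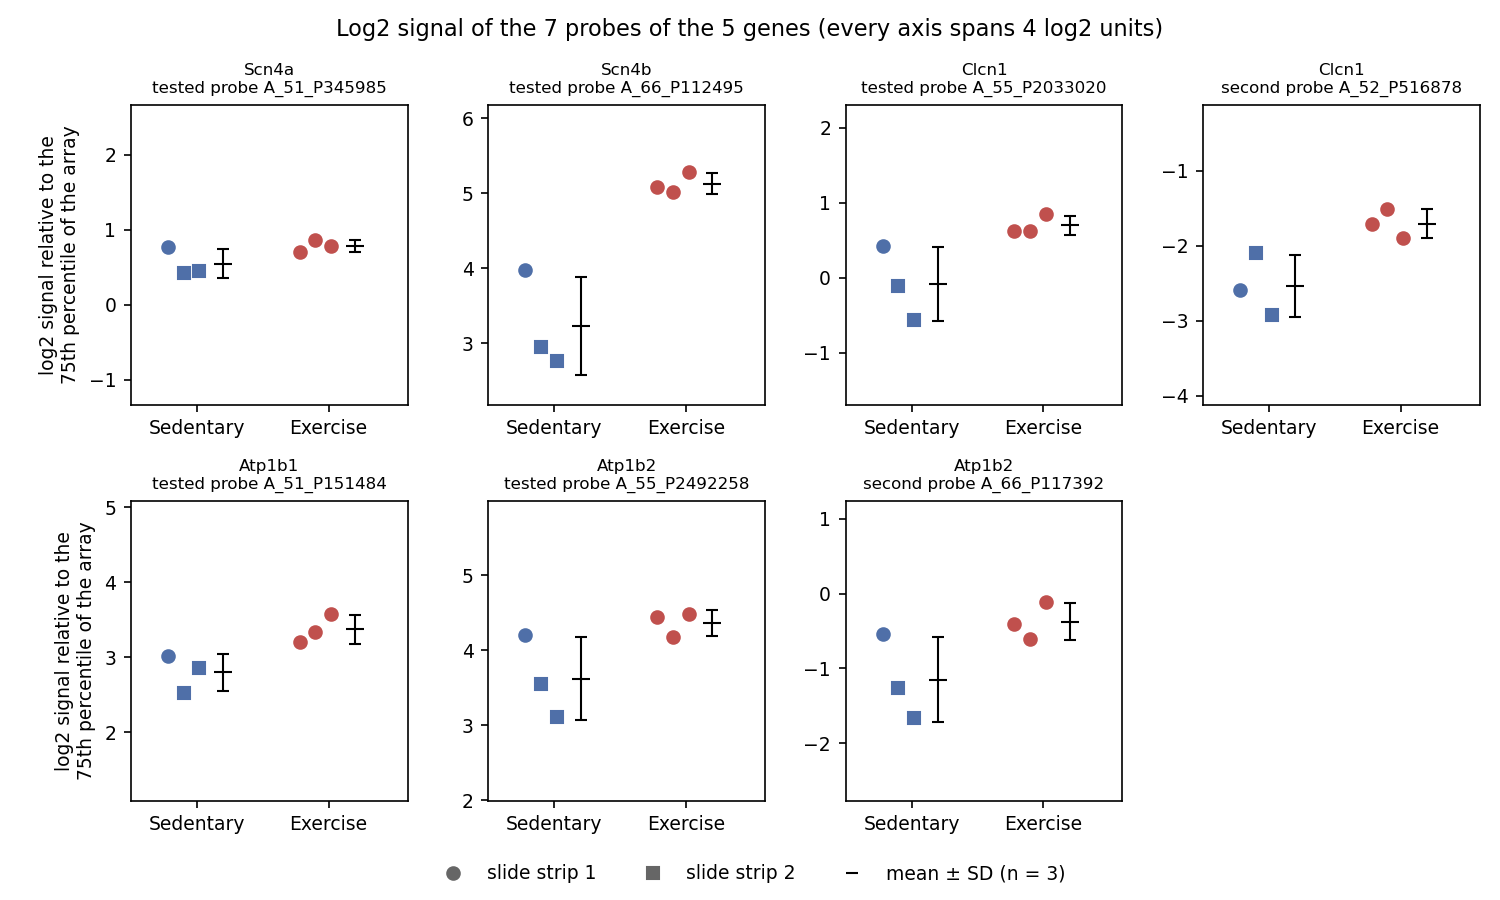
Log2 signal relative to the 75th percentile of the array (vertical axis, spanning the same range of log2 units in every panel) for the 7 probes of the 5 genes in Sedentary (blue) and Exercise (red) arrays. Each point is 1 mouse, its shape gives the strip of the slide, and bars are mean ± SD (n = 3). The Scn4b points of the groups lie farthest apart, from 2.76 to 3.98 in Sedentary and from 5.01 to 5.29 in Exercise, and Sedentary 1 is the highest Sedentary point for all genes in their tested probe.

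Among the sodium channel subunits, the pore-forming subunit gene Scn4a (NM_133199) measured 0.71, 0.87 and 0.78 in the Exercise arrays and 0.77, 0.43 and 0.44 in the Sedentary arrays. Sedentary 1 lay within the Exercise values and the groups overlapped. The means were 0.78 ± 0.08 and 0.55 ± 0.19 (SD, n = 3 each), a log2 fold change of 0.24 (SE 0.12, 95% interval -0.06 to 0.53) that did not pass in limma (adjusted P = 0.206). Against Sedentary 1 alone, the Exercise mean differed by 0.02. The direction for Scn4a also depended on the scaling: it was -0.23 without scaling and -0.30 with scaling on spike-in probes, settings in which the median of all genes was -0.45 and -0.51.

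The beta subunit gene Scn4b (NM_001013390) measured 5.09, 5.01 and 5.29 in the Exercise arrays and 3.98, 2.94 and 2.76 in the Sedentary arrays. Every Exercise array exceeded every Sedentary array, and Sedentary 1 lay closest to the Exercise group. Its group means were 5.13 ± 0.14 and 3.23 ± 0.66 (SD, n = 3 each). The log2 fold change was 1.90 (SE 0.32, 95% interval 1.12 to 2.68; limma adjusted P = 0.0239), larger than that of 99.8% of the genes and transcripts tested. Before any scaling, the processed signals were already apart, at 8734, 8282 and 9782 in Exercise and 4899, 2852 and 2594 in Sedentary. The exact two-sided permutation test over the 20 arrangements of the arrays gave P = 0.1, which is the smallest that 3 arrays against 3 allow. Within strip 1, the Exercise mean exceeded Sedentary 1 by 1.15 (adjusted P = 0.153 with the strip as a block). Leaving out any array but Sedentary 1 took the limma adjusted P above 0.05, to between 0.0614 and 0.0957, with log2 fold changes of 1.67 to 1.96. In each of those fits 0 of all 25005 genes and transcripts passed as higher. Without Sedentary 1, the log2 fold change of Scn4b was 2.28 (limma adjusted P = 0.00763).

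The chloride channel gene Clcn1 was read by 2 probes of different transcript accessions. The brighter one (NM_001363712), which was the one tested, measured 0.62, 0.62 and 0.84 in Exercise and 0.42, -0.11 and -0.57 in Sedentary. The groups did not overlap after scaling, although Sedentary 1 lay nearer to the Exercise arrays than to the other Sedentary arrays, and its unscaled signal of 416 exceeded those of Exercise 1 and Exercise 2 (396 and 395). Means of 0.70 ± 0.13 and -0.08 ± 0.50 (SD, n = 3 each) gave a log2 fold change of 0.78 (SE 0.25, 95% interval 0.18 to 1.39), which missed the threshold in limma (adjusted P = 0.0757). The dimmer probe (NM_013491) measured -1.71, -1.51 and -1.90 in Exercise and -2.59, -2.09 and -2.92 in Sedentary, again without overlap after scaling, whereas its unscaled signal of 86.8 in Sedentary 2 exceeded 78.6 in Exercise 1 and 67.2 in Exercise 3. Its log2 fold change was 0.83 (limma adjusted P = 0.0539 over probes). The probes differed in the order of the Sedentary arrays: against Sedentary 1, the Exercise mean was higher by 0.28 for the brighter probe and by 0.89 for the dimmer one.

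For the sodium pump, Atp1b1 (NM_009721) measured 3.21, 3.33 and 3.58 in Exercise and 3.01, 2.53 and 2.85 in Sedentary. These groups did not overlap after scaling, but the unscaled signals did, running from 2370 to 2998 in Exercise and from 2132 to 2769 in Sedentary. Group means were 3.37 ± 0.19 and 2.80 ± 0.25 (SD, n = 3 each), and the log2 fold change of 0.58 (SE 0.16, 95% interval 0.18 to 0.97) did not pass in limma (adjusted P = 0.0579). Within strip 1 it was 0.36.

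The other beta subunit gene, Atp1b2 (NM_013415), measured 4.45, 4.17 and 4.48 in Exercise and 4.20, 3.55 and 3.11 in Sedentary. Sedentary 1 exceeded Exercise 2, and the groups overlapped. Its means of 4.37 ± 0.17 and 3.62 ± 0.55 (SD, n = 3 each) gave a log2 fold change of 0.75 (SE 0.28, 95% interval 0.07 to 1.42), which did not pass in limma (adjusted P = 0.108). A dimmer probe of the same accession gave 0.78. For both Atp1b2 probes the Exercise mean was 0.16 above Sedentary 1.

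Without Sedentary 1, 4 of the 5 genes passed as higher: Clcn1 at 1.04 (limma adjusted P = 0.0191), Atp1b2 at 1.04 (adjusted P = 0.0202) and Atp1b1 at 0.68 (adjusted P = 0.0429), beside Scn4b. In that fit 3476 of all 25005 genes and transcripts passed as higher. Without any other array, 0 of the 5 genes passed. In those fits 0 of all 25005 genes and transcripts passed as higher and at most 1 as lower. The exact permutation P was 0.1 for Clcn1 and Atp1b1 and 0.2 for Scn4a and Atp1b2.

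A factor that multiplies a whole array cancels in a ratio between members within that array, and 3 such ratios were compared. The log2 ratio of Scn4b over Scn4a, given relative to its mean over the 6 arrays, was 0.87, 0.63 and 1.00 in Exercise and -0.30, -0.997 and -1.20 in Sedentary. The groups did not overlap, and the beta subunit gene rose relative to the pore-forming subunit gene by 1.66 on the log2 scale (exact two-sided permutation P = 0.1, adjusted P = 0.15 over the 3 ratios). For Clcn1 over Scn4a the values were 0.28, 0.11 and 0.43 in Exercise and 0.01, -0.18 and -0.65 in Sedentary. These did not overlap either, with a difference of 0.54 (exact permutation P = 0.1, adjusted P = 0.15). The ratio of Atp1b2 over Atp1b1 was 0.33, -0.07 and -0.01 in Exercise and 0.28, 0.11 and -0.65 in Sedentary. The groups overlapped, and the difference of 0.17 (exact permutation P = 0.8) fell to -0.11 without Sedentary 3. With 3 arrays against 3, no ratio could go below the exact permutation P of 0.1. Within strip 1 the differences were 1.13 for Scn4b over Scn4a, 0.26 for Clcn1 over Scn4a and -0.20 for Atp1b2 over Atp1b1.

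**Figure D2:**
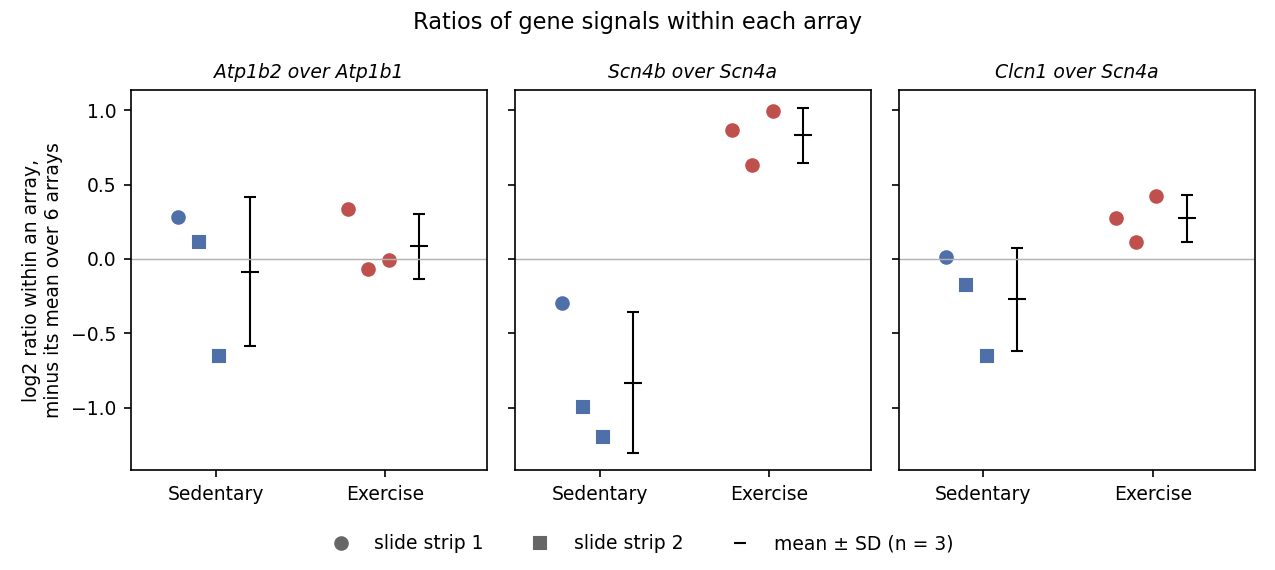
Log2 ratio of the signals of 2 genes within an array, minus its mean over the 6 arrays (vertical axis), for Sedentary (blue) and Exercise (red). Points are mice, shapes give the strip, and bars are mean ± SD (n = 3). Scn4b over Scn4a separates the groups by 1.66, whereas Atp1b2 over Atp1b1 overlaps between them.

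The members were also compared by their profiles over the 6 arrays, a measure that includes the difference between the groups already given. After subtraction of each gene's mean, the root mean square difference was smallest between Clcn1 and Atp1b2, at 0.092, and largest between Scn4a and Scn4b, at 0.882. Over all genes with a matched name, the profiles nearest to Scn4b were those of Mlf1 (0.079), Tmem233 (0.111) and Amd2 (0.120). Those nearest to Clcn1 were Egflam (0.058), Usb1 (0.072) and Acvr1b (0.074), and those nearest to Atp1b2 were Usb1 (0.071), 1700022I11Rik (0.086) and Vmn1r217 (0.091). Atp1b1 lay nearest to E430016F16Rik (0.052), 2900040C04Rik (0.065) and Map3k15 (0.066), and Scn4a to Srpx2 (0.028), Map2k3os (0.032) and Actb (0.034). These are descriptions over 6 arrays that share a slide.

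Beyond the members, the sodium channel list of 12 subunit genes had 8 that were tested, of which 2 passed as higher and 0 as lower. Over all genes and transcripts tested, 11.5% passed as higher and 6.12% as lower. The median log2 fold change of the 8 was -0.01, beside 0.03 for all genes and transcripts. The gene that passed beside Scn4b was Scn8a, a channel of neurons, with 3.20, 3.21 and 3.18 in Exercise and 2.85, 2.89 and 2.84 in Sedentary. Its groups did not overlap, and it was 0.33 higher (SE 0.07, limma adjusted P = 0.0340), but -0.14 in unscaled signals and -0.21 with spike-in scaling. This call rested on the brightest of 4 Scn8a probes. The only other kept probe had unscaled signals of 2.5 to 21.1 and gave 1.26 (limma adjusted P = 0.237 over probes). The remaining Scn8a probes were too dim to be kept. The 6 tested genes that did not pass ran from -0.49 to 0.24, and 3 of the 12 had no probe well above background on any array.

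**Figure D3:**
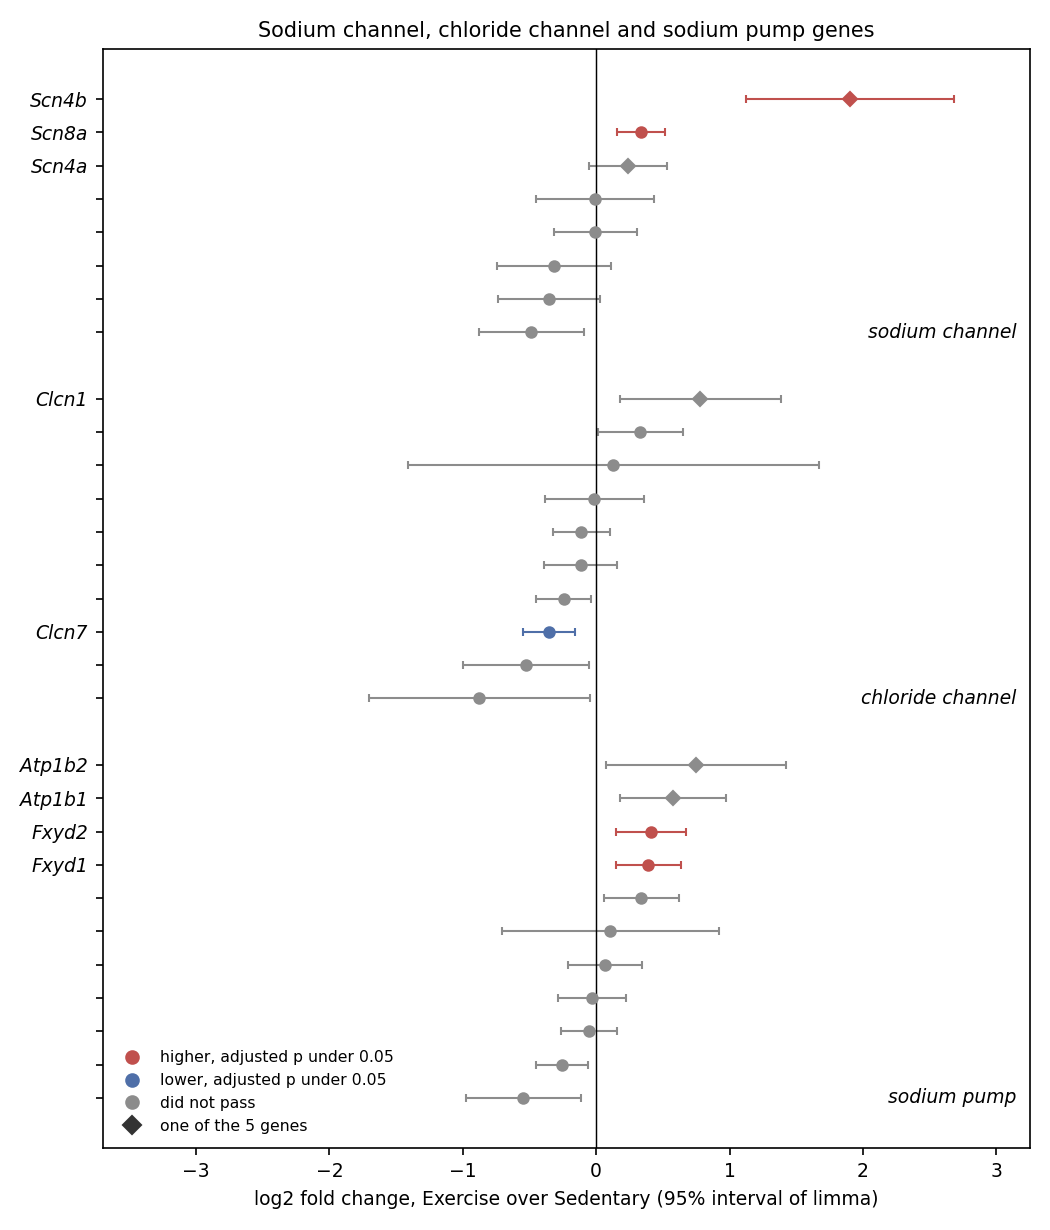
Log2 fold change of Exercise over Sedentary with the 95% interval of limma (horizontal axis) for the tested genes of the sodium channel, chloride channel and sodium pump lists, with the 5 members as diamonds. Red and blue mark genes that passed as higher or lower, and grey those that did not pass, which are named only where they are members. Scn4b at 1.90 has the largest change among the genes shown.

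In the chloride channel list, 10 of 11 genes were tested, 0 passed as higher and 1 as lower, with a median of -0.11. The shares over all genes and transcripts were 11.5% as higher and 6.12% as lower. The gene that passed was Clcn7, a chloride and proton exchanger of lysosomes, at -0.35 (SE 0.08, limma adjusted P = 0.0364). Clcn1 had the highest fold change of the 10. The probes of Clcn2 disagreed. The brighter probe, which stood for the gene, gave -0.53 (limma adjusted P = 0.108 over probes). The dimmer gave 1.16 and passed as higher at the level of probes (limma adjusted P = 0.0289).

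Of 13 genes of the sodium pump list, 11 were tested, and 2 passed as higher and 0 as lower, with a median of 0.11. Beside this, 11.5% of all genes and transcripts passed as higher and 6.12% as lower. The pump regulators Fxyd1 (phospholemman) and Fxyd2 were higher by 0.39 and 0.41 (limma adjusted P = 0.0467 and 0.0482). Their calls were lost under all 5 other scalings, and in unscaled signals they measured -0.08 (Fxyd1) and -0.06 (Fxyd2). Atp1b2 and Atp1b1 had the highest fold changes of the 11.

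Genes that anchor or turn over channels were tested for 17 of 18, of which 2 passed as higher and 1 as lower. These counts lie near the shares over all genes and transcripts, 11.5% as higher and 6.12% as lower. The ankyrin gene Ank1 was 0.65 higher and the spectrin gene Sptbn4 0.34 higher, while Fgf11, a channel-binding relative of the fibroblast growth factors, was -0.66. In unscaled signals Ank1 stayed positive, at 0.18, whereas Sptbn4 was -0.13. The median of these 17 was -0.08. Among 5 factors that act on Clcn1 splicing, Mbnl1, whose loss of function gives the Clcn1 mis-splicing of myotonic dystrophy, passed at 0.48 (limma adjusted P = 0.0354), with 0.24 for its second probe and -0.06 with spike-in scaling.

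Marker genes of the muscle moved with these results. All 6 general muscle fibre markers were above background and had higher means (4 of 6 in unscaled signals), and 4 passed (Ckm rose from 7.32 to 8.82, Mb by 1.20 and Acta1 by 0.93). All 7 fast-twitch markers had higher means (6 of 7 in unscaled signals) and 6 passed (Pvalb 1.67, Mybpc2 1.42 and Actn3 1.38), while all 6 slow-twitch markers had lower means and 2 passed (Tnni1 -1.45, Atp2a2 -0.79). Of 8 denervation markers, all had lower means and 6 passed (Chrng -3.62, Myh3 -2.35 and Chrnd -1.92). The shares passing over all genes and transcripts were 11.5% as higher and 6.12% as lower. The mean of the fast-twitch list was 8.56 to 8.80 in Exercise, 8.07 in Sedentary 1 and as low as 7.24 in the Sedentary arrays, and that of the denervation list was 0.47 to 0.82 in Exercise, 1.51 in Sedentary 1 and up to 2.78 in Sedentary. Sedentary 1 was thus the Sedentary array nearest to the Exercise group in Scn4b and in these lists. The slow-twitch list went the other way, with a mean of 1.88 to 3.44 in Exercise and 3.09 to 3.63 in Sedentary, where Sedentary 1 was the highest. The part of fibre type and denervation in the Scn4b difference was not tested.

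In the Schwann cell and nerve list, all 6 genes had lower means and none passed, with list means of 1.28 to 1.54 in Exercise and 1.60 to 1.87 in Sedentary. All 6 passed as lower in unscaled signals and with spike-in scaling. In those settings 11280 and 11119 of all 25005 genes and transcripts passed as lower too. None of 4 endothelial, 4 macrophage or 3 fibroblast markers passed, nor did the 2 tested of 3 red blood cell genes. Of 4 adipocyte markers, with a median of -0.49 and a range from -0.96 to 0.35, Lep passed at 0.35 (-0.12 in unscaled signals), and of 4 smooth muscle markers, with a median of -0.74 and a range from -1.66 to 1.32, Acta2 passed at 1.32 in its brightest probe, with -0.89 and -0.80 in its other probes, and Myh11 passed at -0.95. In the motor neuron and glia list Chat was tested and did not pass, and Gfap was not kept. Their part in the results for the members was not tested.

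The member changes were set against other processing. Scn4b stayed between 1.36 and 2.11 in every setting that kept all 6 arrays and no strip term. Its call was lost with the strip as a block, with statistics not moderated across genes (adjusted P = 0.0647) and with the replicate number as a block (limma adjusted P = 0.0606). Clcn1, Atp1b1 and Atp1b2 passed together with Scn4b when the background was corrected with normexp, at 0.67, 0.48 and 0.67, and when arrays were weighted by quality. In those settings 6169 and 5124 of all 25005 genes and transcripts passed as higher. The changes of Clcn1, Atp1b1 and Atp1b2 were smaller without scaling, at 0.31, 0.10 and 0.27, and with spike-in scaling, at 0.24, 0.04 and 0.21. None of them passed in either setting. The median of all genes and transcripts was -0.45 without scaling and -0.51 with spike-in scaling, and all 5 members lay above it in both.

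**Figure D4:**
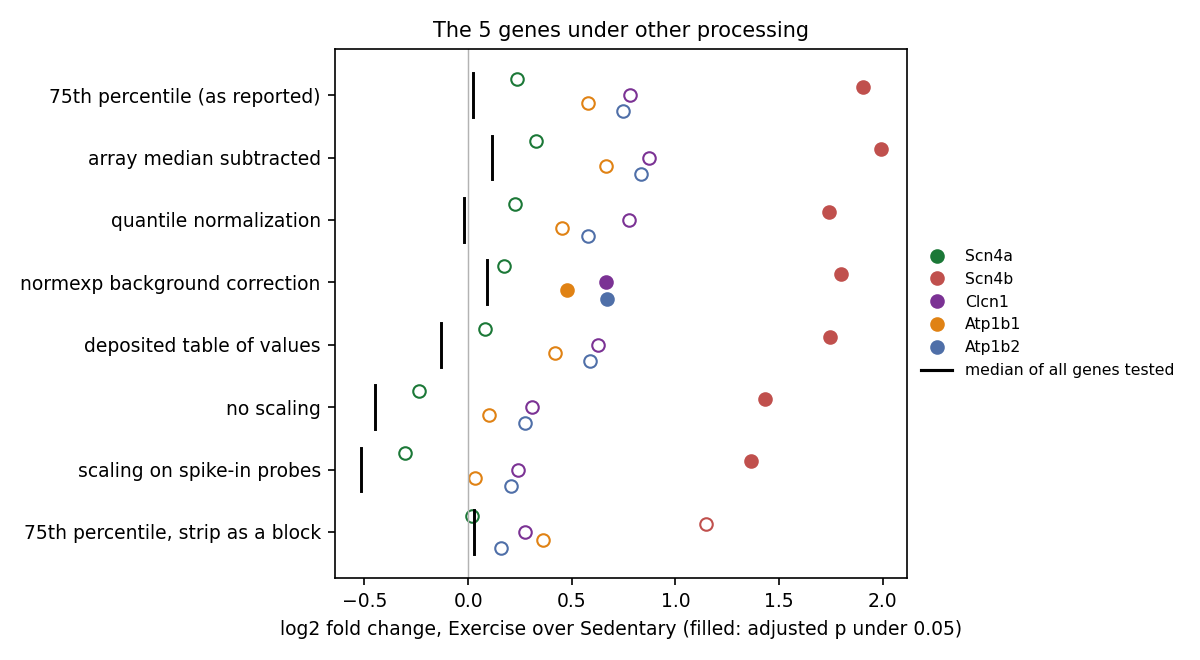
Log2 fold change of Exercise over Sedentary (horizontal axis) for the 5 members under 8 ways of processing (rows), filled where the adjusted P was below 0.05. Vertical ticks mark the median of all genes tested. Scn4b lies farthest to the right in every row, at 1.15 in the lowest row, and Scn4a lies below 0 without scaling and with spike-in scaling.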

How the data were processed

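Total RNA of the quadriceps of 6 male AR97Q mice (3 Exercise, 3 Sedentary, 1 array each) was labelled with Cy3 and hybridized to Agilent mouse arrays by a service company and read with Feature Extraction 12.1.0.3. The deposited scanner files give each spot a processed intensity on a linear scale, background-subtracted by the scanner software. The table of values that the authors deposited equals these intensities times 1 factor per array (1.33 to 1.88) and was used as an alternative.

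Control spots (3671 of 62976) and outlier spots were left out, and spots of a probe were averaged. Log2 intensities were set relative to the 75th percentile of each array. A probe was kept if it lay well above background on 3 or more of the 6 arrays, and the brightest kept probe stood for its gene. Of 56605 probes, 34566 matched a gene name by accession and 22039 kept the file's identifier, so 15745 named genes and 9260 unnamed transcripts were tested. The comparison of Exercise with Sedentary used limma 3.58.1 (R 4.3.3) without covariates, with Benjamini-Hochberg adjustment over all 25005. The study's rule for differential expression, an adjusted P under 0.05 with a log2 fold change of 1 or more in size, was applied beside it. Single values were also tested by exact permutation over 20 arrangements. The analysis was tested on simulated data. The number of arrays limits the precision.

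The members and gene lists were chosen with earlier results of these data known. The text names every member and probe, each passing gene of the sodium channel, chloride channel and sodium pump lists, up to 3 largest passing changes per direction of other lists, and the 3 nearest named profiles of each member. Clcn2 was named outside this rule because its probes disagreed, and Chat and Gfap because their list holds only 2 genes. Promoter windows came from RefSeq (GRCm38.p6) and were found for 4 of 5 members. Some genes are not reported here, and the list counts leave them out.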

Additional observations from a re-analysis of the deposited data

How the results depend on the processing

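Over 17 alternatives and 6 arrays left out in turn, the directions of Scn4b, Clcn1, Atp1b1 and Atp1b2 did not change, and no member passed as lower. Clcn1, Atp1b1 and Atp1b2 fell short of their reported values without scaling (0.31, 0.10 and 0.27), with spike-in scaling (0.24, 0.04 and 0.21) and with the strip as a block (0.28, 0.36 and 0.16). They were also smaller with the deposited values (0.62, 0.42 and 0.59) and with quantile normalization (0.77, 0.45 and 0.58). The median of all genes and transcripts was -0.45 without scaling and -0.51 with spike-in scaling. Scn4a turned to -0.23 in unscaled signals and -0.30 with spike-in scaling, passing in neither. The call for Scn4b was lost with the strip as a block (1.15, adjusted P = 0.153), with unmoderated statistics (1.90, adjusted P = 0.0647) and with the replicate block described last, so that 0 members passed in each. Clcn1, Atp1b1 and Atp1b2 gained a call with normexp (0.67, 0.48 and 0.67) and with array weights (0.82, 0.72 and 0.84), giving 4 passing members. Clcn1 and Atp1b1 gained one with a trended, robust eBayes and at an adjusted P under 0.1 (0.78 and 0.58 in both, 3 members). Atp1b1 alone gained one with probes above background on all arrays (0.58, 2 members), and Clcn1 alone with the mean of its probes (0.81, 2 members). Of all 25005 genes and transcripts, 6169 passed as higher with normexp, 5124 with array weights, 3721 with the robust eBayes and 4617 at the 0.1 threshold. With the mean of the probes 2711 did, and 3352 of 22287 did with probes above background on all arrays. Why the calls of the members changed was not tested.

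The sodium channel list (2 higher, 0 lower) had 1 higher under all 5 other scalings, with the mean of the probes, the most variable probe, unmoderated statistics and the study's rule. It had 4 lower in unscaled signals and with spike-in scaling, and 1 lower with array weights and at an adjusted P under 0.1. As a background for all 3 lists, 11280 of 25005 genes and transcripts passed as lower in unscaled signals and 11119 with spike-in scaling. The chloride channel list (0 higher, 1 lower) had 6 lower in unscaled signals and with spike-in scaling, 2 lower with quantile normalization and the deposited values, and 0 lower with the array median, unmoderated statistics and the study's rule. It had 2 higher and 2 lower with normexp, 2 higher and 3 lower with array weights, 1 higher and 2 lower with the robust eBayes and the threshold of 0.1, and 1 higher with the mean of the probes or the most variable probe. The sodium pump list (2 higher, 0 lower) had 0 higher under all 5 other scalings, with 5 lower in unscaled signals, 4 with spike-in probes and 1 with the deposited values. It had 5 higher and 2 lower with normexp and with array weights, 4 higher and 2 lower with the robust eBayes and the threshold of 0.1, 1 lower without a filter, and 0 higher with the most variable probe, unmoderated statistics and the study's rule. With the strip as a block, 0 genes of the 3 lists passed in either direction.

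With 1 array left out, log2 fold changes ran from 0.18 to 0.35 for Scn4a, 1.67 to 2.28 for Scn4b, 0.54 to 1.04 for Clcn1, 0.44 to 0.68 for Atp1b1 and 0.49 to 1.04 for Atp1b2, with 0 to 4 members passing. The sodium channel list had 0 to 2 higher and 0 lower, the chloride channel list 0 to 1 higher and 0 to 2 lower, and the sodium pump list 0 to 3 higher and 0 to 1 lower. The ratio of Atp1b2 over Atp1b1 ran from -0.11 to 0.36 and turned negative without Sedentary 3, while the ratios of Scn4b and Clcn1 over Scn4a kept their direction. Over all 25005 genes and transcripts, leaving out any array but Sedentary 1 left 0 passing as higher and at most 1 as lower, against 3476 and 2060 without Sedentary 1.

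Passing counts over all 25005 genes and transcripts (2868 higher, 1530 lower) were 1865 and 1363 with quantile normalization, 2680 and 875 with the array median, 617 and 11280 unscaled, 356 and 11119 with spike-in probes, 1172 and 3201 with the deposited values, 6169 and 2012 with normexp, 5124 and 3627 with array weights, 438 and 204 with unmoderated statistics, 4617 and 3084 at an adjusted P under 0.1, 430 and 264 under the study's rule, and 0 and 3 with the strip as a block. Without a filter on dim probes, 44916 were tested, of which 9741 passed as higher and 1918 as lower.

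Groups shared replicate numbers, but same-numbered arrays hardly deviated together (correlations of 0.02, 0.08 and 0.04). Exercise 2 and Exercise 3 correlated best with the Sedentary array of their own number, and Exercise 1 with Sedentary 3 (0.07). As all these correlations were weak, the numbers were not taken as pairs. With the replicate block, limma passed 0 of 25005 (8591 had an unadjusted P under 0.05), Scn4b was 1.90 (adjusted P = 0.0606), and the member and list counts were 0 in both directions.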
